A study of Caenorhabditis elegans with 12 samples.

Results

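The genes described here are 10 T-box genes of Caenorhabditis elegans, tbx-8, tbx-9, tbx-11, tbx-32, tbx-33, tbx-35, tbx-37, tbx-38, tbx-39 and tbx-40. They were taken by their WormBase symbols from the 25122 genes measured in eggs, and all 10 had a value in every library. The list was drawn up with results of these data in view, because tbx-32 was known to be among the largest increases of daf-2;bcl-11 eggs over daf-2 eggs. The members are thus counted as chosen by their values in that contrast. Values of these genes against daf-2 are therefore given as a description, and the counts of calls given there are no test of the list.

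T-box genes encode transcription factors that bind DNA through a domain first described in the vertebrate protein Brachyury, and in animals they are best known for setting mesoderm and other early cell fates. The nematode has an expanded set, and several members act in pairs of similar genes that can replace each other. In the nematode embryo tbx-37 and tbx-38 are needed for mesoderm made by ABa, the anterior daughter of the AB blastomere, tbx-35 acts in the MS blastomere downstream of the GATA factors MED-1 and MED-2, and tbx-8 and tbx-9 act later in the shaping of body muscle and epidermis.

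RNA came from eggs of 3 genotypes, with 4 libraries each: a triple mutant (daf-16;daf-2;bcl-11), a double mutant (daf-2;bcl-11) and daf-2 alone, against which both were set. The triple and the double mutant together are called the mutants below, although daf-2 eggs carry a mutation as well. The allele of daf-2, the gene of the insulin/IGF-1 receptor, was e1370, which lowers its function, and it was present in all 12 libraries. The allele of bcl-11 in both mutants was bon125, a hypomorph made by gene editing, and the triple mutant had in addition mu86, a deletion in daf-16. bcl-11 is the nematode counterpart of the zinc finger genes BCL11A and BCL11B, and DAF-16 is the FOXO factor that insulin signaling restrains. Mothers were grown on OP50-1 bacteria at 20 °C, and the eggs were freed by bleaching and held at 27 °C for 2 h. The replicate number of a library is also its batch in the labels, so each of the 4 batches held 1 library of each genotype. The labels do not say whether libraries came from separate cultures, so the p-values measure the spread between these libraries, which may be technical.

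Each value is a regularized-log (rlog) value, a normalized count on the log2 scale in which genes with few reads are pulled towards their own mean, so that changes of low genes are understated. Reads per library are unknown. A gene was called at a Benjamini-Hochberg adjusted p below 0.05 in limma over all genes and a log2 fold change beyond 0.585, which is 1.5-fold. The median value of a library was 5.77 to 5.95 in the triple mutant, 5.92 to 6.01 in the double mutant and 6.36 to 6.50 in daf-2. Centring each library on its median would add 0.54 to every log2 fold change of the triple mutant against daf-2, 0.43 to those of the double mutant against daf-2 and 0.11 to those of the triple mutant against the double mutant. On the deposited scale the median log2 fold change over all genes against daf-2 was -0.01 in the triple mutant and -0.02 in the double mutant. A gene that does not move on that scale thus stands above daf-2 after centring. Which scale is nearer to the RNA content of the eggs was not tested. In bulk eggs, fewer cells or embryos that express a gene and less RNA per cell cannot be told apart.

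Before the results, the targeted genes were checked in every library. daf-16 had rlog values of 9.65, 9.77, 9.90 and 9.58 in the triple mutant and 9.51, 9.61, 9.50 and 9.46 in the double mutant, against 12.14, 12.32, 12.03 and 11.98 in daf-2. The double mutant should have a normal daf-16 gene, yet these libraries held as little daf-16 RNA as the deletion, and daf-16 did not separate the mutants (log2 fold change 0.20, SE 0.13, adjusted p = 0.793, limma). They are called the labelled double mutant from here on, since what they are said to be, and any direction drawn from them, depends on the label alone. bcl-11 was called lower than in daf-2 in both (log2 fold change -1.05 in the triple mutant, adjusted p = 0.0132, and -0.87 in the labelled double mutant, adjusted p = 0.0373, limma). That call was less firm, since replicate 3 of the triple mutant, at 9.70, lay above replicate 3 of daf-2, at 9.61. After median centring bcl-11 stood at -0.51 in the triple mutant and -0.44 in the labelled double mutant, short of the threshold, and without batch 4 it was called in neither. daf-2 was not called in either mutant on the deposited scale.

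Across all 10 T-box genes the 4 libraries of the labelled double mutant were high, and in the triple mutant the genes split. tbx-8 and tbx-9 were high in all 4 of its libraries. The other 8 were at their highest in replicate 4, and in replicates 1 to 3 most lay within or below the range of daf-2. The next paragraphs give these values gene by gene, ordered by what the genes are known to do.

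**Figure D1:**
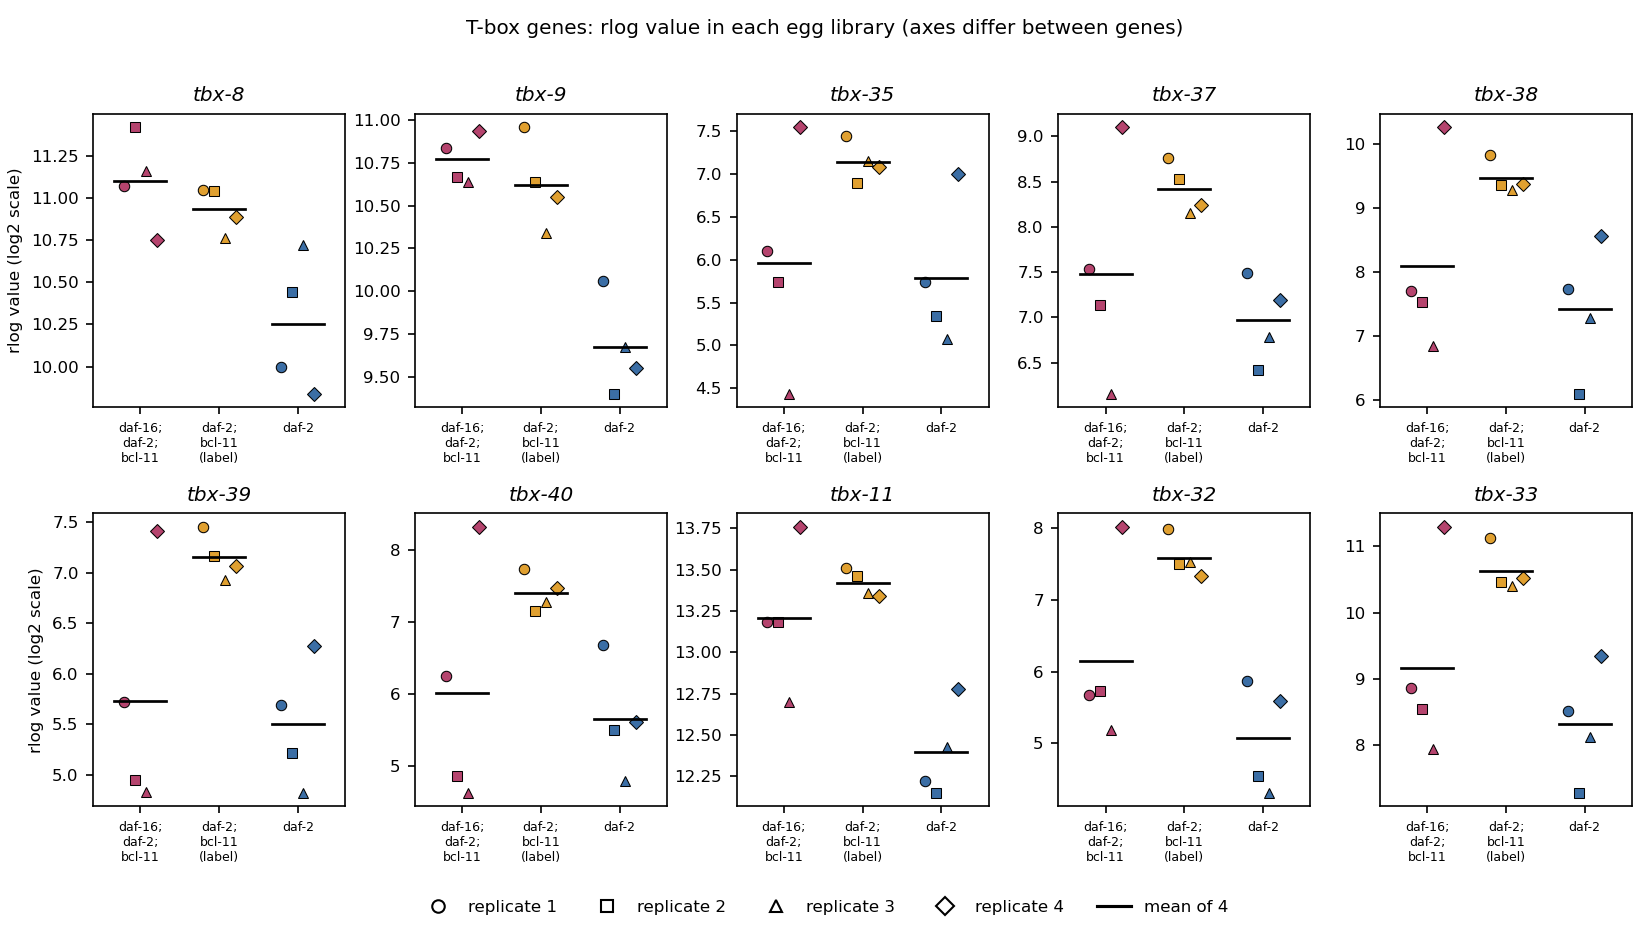
rlog value (log2 scale, own axis for each gene) of the 10 T-box genes in each of the 12 egg libraries, with the triple mutant left, the labelled double mutant in the middle and daf-2 right. Marker shape gives the replicate and the bar the mean of 4 libraries, and for tbx-32 replicate 4 of the triple mutant lies at 8.02 while its replicates 1 to 3 lie at 5.19 to 5.73.

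tbx-8 (WBGene00006545) and tbx-9 (WBGene00006546) are neighbours on chromosome III of WBcel235, at 10347349 to 10349740 on the plus strand and 10340006 to 10341858 on the minus strand. They point away from each other, 5490 bases apart, with 0 protein-coding genes between them. tbx-8 had rlog values of 11.07, 11.42, 11.16 and 10.75 in the triple mutant and 11.05, 11.04, 10.76 and 10.89 in the labelled double mutant, against 10.00, 10.44, 10.72 and 9.84 in daf-2. Every library with bcl-11(bon125) lay above every daf-2 library, although only narrowly above its replicate 3. For tbx-9 the values were 10.84, 10.67, 10.64 and 10.94 in the triple mutant and 10.96, 10.64, 10.34 and 10.55 in the labelled double mutant, against 10.06, 9.40, 9.67 and 9.55 in daf-2. Again no daf-2 library reached either mutant. The log2 fold changes against daf-2 were 0.85 (SE 0.19) for tbx-8 and 1.10 (SE 0.17) for tbx-9 in the triple mutant, and 0.69 (SE 0.19) and 0.95 (SE 0.17) in the labelled double mutant.

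Between the mutants tbx-8 and tbx-9 differed by little. The log2 fold change of the triple mutant against the labelled double mutant was 0.16 for tbx-8 (95% interval -0.25 to 0.58, adjusted p = 0.885, limma) and 0.15 for tbx-9 (95% interval -0.21 to 0.51, adjusted p = 0.874, limma). These intervals leave room for a difference on either side of 0. tbx-8 exceeded tbx-9 by 0.33 ± 0.41 in the triple mutant, 0.32 ± 0.15 in the labelled double mutant and 0.58 ± 0.55 in daf-2 (mean difference in rlog value ± SD, n = 4).

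tbx-37 (WBGene00006556, chromosome III, 11224808 to 11227125, minus strand) and tbx-38 (WBGene00006557, chromosome III, 11784082 to 11786061, minus strand) are the pair that acts in ABa descendants, where the Notch receptor GLP-1 later signals to some of them. tbx-37 had rlog values of 7.54, 7.14, 6.16 and 9.10 in the triple mutant and 8.76, 8.53, 8.15 and 8.24 in the labelled double mutant, against 7.49, 6.42, 6.79 and 7.19 in daf-2. tbx-38 had 7.71, 7.54, 6.85 and 10.27 in the triple mutant and 9.83, 9.37, 9.29 and 9.38 in the labelled double mutant, against 7.73, 6.10, 7.29 and 8.57 in daf-2. For both genes the labelled double mutant lay above all of daf-2, and the triple mutant had its replicate 4 above both other genotypes and its replicates 1 to 3 below all of the labelled double mutant. The log2 fold change against daf-2 was 0.51 (SE 0.45) for tbx-37 and 0.67 (SE 0.61) for tbx-38 in the triple mutant, and 1.45 (SE 0.45) and 2.04 (SE 0.61) in the labelled double mutant.

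The lead of tbx-38 over tbx-37 varied between libraries. tbx-38 exceeded tbx-37 by 1.18 in replicate 4 of the triple mutant and by 0.17 to 0.69 in its replicates 1 to 3, by 0.83 to 1.14 in the labelled double mutant, and by -0.32 to 1.38 in daf-2. The highest difference in daf-2 was in its replicate 4, where tbx-38 was also highest. tbx-38 overlaps the end of srd-74 on the opposite strand by 29 bases, and strand was not kept, so reads there cannot be assigned to either gene. How far kallisto shared reads between similar T-box genes was not tested.

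tbx-35 (WBGene00006554, chromosome II, 5524101 to 5525397, minus strand), which helps to set the MS fate, was the single member in which the labelled double mutant overlapped daf-2. Its rlog values were 6.10, 5.74, 4.44 and 7.54 in the triple mutant and 7.44, 6.89, 7.15 and 7.08 in the labelled double mutant, against 5.74, 5.34, 5.07 and 7.00 in daf-2. Replicate 4 of daf-2 reached the level of the labelled double mutant, and tbx-35 was the single member there that was not called. The difference from daf-2 was 0.17 (SE 0.52) in the triple mutant and 1.35 (SE 0.52) in the labelled double mutant on the log2 scale.

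tbx-39 (WBGene00006558, 15323893 to 15325189, plus strand) and tbx-40 (WBGene00006559, 15326846 to 15328192, minus strand) face each other on chromosome IV, 1656 bases apart, with 0 protein-coding genes between them. For tbx-39 the rlog values were 5.72, 4.95, 4.83 and 7.42 in the triple mutant and 7.46, 7.17, 6.93 and 7.07 in the labelled double mutant, against 5.69, 5.22, 4.82 and 6.28 in daf-2. For tbx-40 they were 6.26, 4.86, 4.63 and 8.33 in the triple mutant and 7.74, 7.15, 7.28 and 7.48 in the labelled double mutant, against 6.69, 5.50, 4.79 and 5.62 in daf-2. In both genes replicates 1 to 3 of the triple mutant lay no higher than the highest daf-2 library, and replicate 4 lay within the range of the labelled double mutant for tbx-39 and above it for tbx-40. On the log2 scale tbx-39 differed from daf-2 by 0.23 (SE 0.46) and tbx-40 by 0.37 (SE 0.63) in the triple mutant, and by 1.66 (SE 0.46) and 1.76 (SE 0.63) in the labelled double mutant.

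tbx-32 (WBGene00006551, chromosome X, 1655507 to 1657104, plus strand), the gene by which the list was first noticed, had the largest difference from daf-2 of the 10 in the labelled double mutant. Its rlog values were 5.67, 5.73, 5.19 and 8.02 in the triple mutant and 7.98, 7.50, 7.53 and 7.33 in the labelled double mutant, against 5.87, 4.54, 4.31 and 5.59 in daf-2. tbx-33 (WBGene00006552, chromosome III, 11633216 to 11636840, minus strand) had 8.86, 8.54, 7.94 and 11.30 in the triple mutant and 11.13, 10.46, 10.40 and 10.53 in the labelled double mutant, against 8.52, 7.28, 8.12 and 9.34 in daf-2. Both genes had the labelled double mutant apart from daf-2 with no overlap, while replicates 1 to 3 of the triple mutant lay no higher than the highest daf-2 library. The log2 fold change against daf-2 was 1.08 (SE 0.51) for tbx-32 and 0.84 (SE 0.57) for tbx-33 in the triple mutant, and 2.51 (SE 0.51) and 2.31 (SE 0.57) in the labelled double mutant.

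tbx-11 (WBGene00006547, chromosome III, 6045615 to 6046981, minus strand) was the most abundant member and lay between these patterns. It had rlog values of 13.18, 13.18, 12.70 and 13.76 in the triple mutant and 13.51, 13.46, 13.36 and 13.34 in the labelled double mutant, against 12.22, 12.15, 12.43 and 12.78 in daf-2. Replicates 1 and 2 of the triple mutant were between the other genotypes, replicate 3 was within the range of daf-2, and replicate 4 was above all. The difference from daf-2 was 0.81 (SE 0.19) in the triple mutant and 1.02 (SE 0.19) in the labelled double mutant.

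Set per kilobase of the longest transcript, the order of levels was nearly the same in each genotype. On the log2 scale tbx-11 led at 12.94 ± 0.43 in the triple mutant, 13.15 ± 0.08 in the labelled double mutant and 12.13 ± 0.28 in daf-2 (SD, n = 4). tbx-8 and tbx-9 came next at 10.86 ± 0.28 and 10.85 ± 0.14 in the triple mutant, 10.70 ± 0.14 and 10.70 ± 0.26 in the labelled double mutant and 10.01 ± 0.40 and 9.75 ± 0.28 in daf-2, and they did not differ from each other beyond their spread. tbx-33, tbx-38 and tbx-37 followed in that order, and tbx-32, tbx-35, tbx-39 and tbx-40 were the lowest, within 5.48 to 5.82 in the triple mutant, 6.91 to 7.10 in the labelled double mutant and 4.48 to 5.66 in daf-2. These 4 did not differ beyond their spread in the triple mutant. Shrinkage by the rlog is strongest for low genes such as these. Of the 10 genes, 6 lie on chromosome III, 2 on IV, 1 on II and 1 on X.

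Counted over the list, 9 of 10 members were called higher in the labelled double mutant than in daf-2, and the same number had no overlap between the genotypes. Over all genes 7.00% were called higher there and 16.7% were higher without overlap. Because this contrast was in view when the list was made, nothing is read from that difference. All 10 were higher in 4 of 4 batches, by as little as 0.05 for tbx-8 in batch 3 and 0.08 for tbx-35 in batch 4. The share of all genes higher in 4 of 4 batches was not counted, and nothing is read from this count either. In the triple mutant against daf-2, 3 of 10 were called higher, tbx-8, tbx-9 and tbx-11, and only tbx-8 and tbx-9 had no overlap. Over all genes 6.38% were called higher there, 16.2% were called lower and 13.5% were higher without overlap. Centring each library on its median turned these shares round, with 37.6% of genes called higher and 8.08% lower in the triple mutant and 26.7% higher and 7.40% lower in the labelled double mutant, so the counts of the lists below are given on both scales. This contrast shares its 4 daf-2 libraries with the one above. The median log2 fold change of the 10 genes was 0.74 in the triple mutant (-0.01 over all genes) and 1.55 in the labelled double mutant (-0.02 over all genes).

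By its labels, the comparison of the triple mutant with the labelled double mutant sets eggs with daf-16(mu86) against eggs without it, but daf-16 RNA was low in both, so no effect of the allele is read from it. It shares the labelled double mutant with the contrast in which the list was noticed. Members high in those 4 libraries were thus favoured, which can make these differences more negative, and the values below are a description. With all 12 libraries 0 of 10 members were called, in limma, while 6 had an unadjusted p below 0.05 (tbx-32, tbx-33, tbx-35, tbx-38, tbx-39 and tbx-40). The background was low, with 0.0119% of all genes called, 0.00398% called lower, 6.03% at an unadjusted p below 0.05 and 4.32% without overlap. No member was without overlap. tbx-11 had a log2 fold change of -0.21 (95% interval -0.62 to 0.19). In the other 7 genes the log2 fold change lay between -1.47 for tbx-33 (95% interval -2.70 to -0.24) and -0.94 for tbx-37 (95% interval -1.91 to 0.03), each with an adjusted p of 0.787 in limma, which was also the lowest adjusted p of the 10. The median of the 10 was -1.27, and that of all genes 0.00.

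Within batches the direction of 8 genes depended on the batch. tbx-32 differed between the triple mutant and the labelled double mutant by -2.30, -1.77 and -2.34 in batches 1 to 3 and by 0.69 in batch 4. For tbx-33 the differences were -2.27, -1.92 and -2.46, with 0.77 in batch 4, and for tbx-38 they were -2.11, -1.83 and -2.44, with 0.89 in batch 4. The same form, lower in batches 1 to 3 and higher in batch 4, held for tbx-11, tbx-35, tbx-37, tbx-39 and tbx-40. tbx-8 instead differed by 0.02, 0.38 and 0.40 in batches 1 to 3 and by -0.14 in batch 4, and tbx-9 by -0.12, 0.03, 0.31 and 0.39 in batches 1 to 4.

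**Figure D2:**
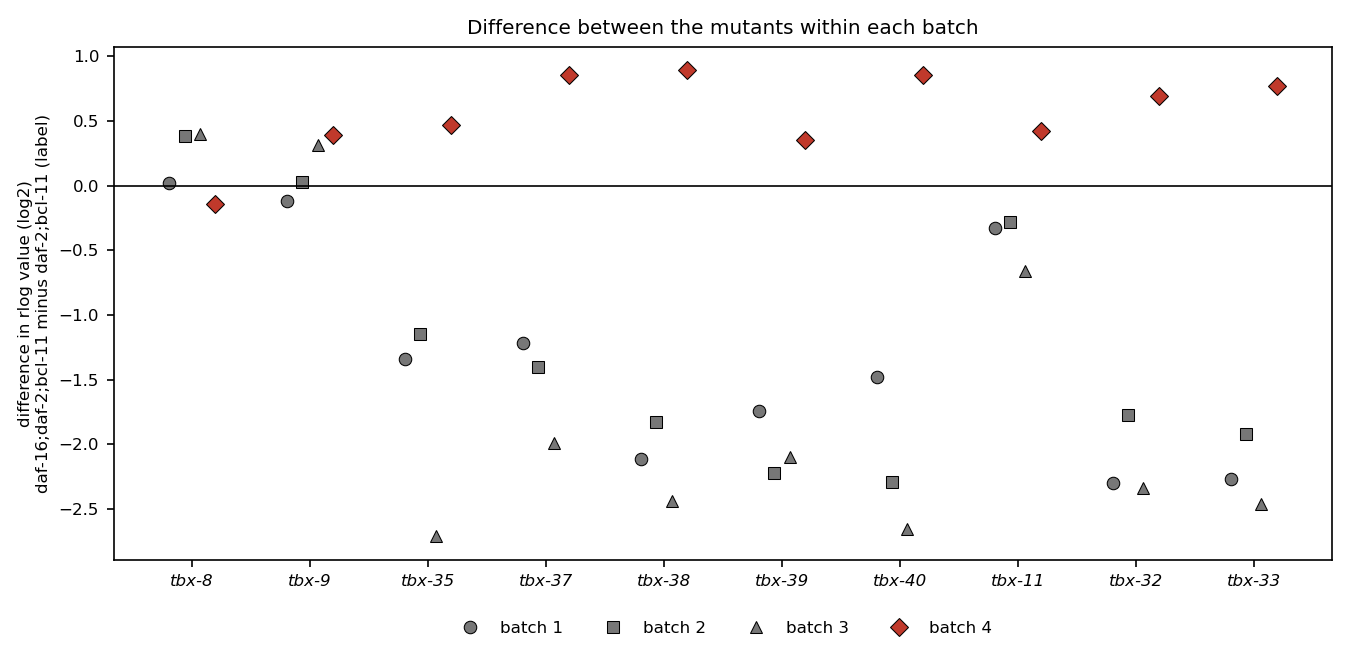
Difference in rlog value (log2 scale) of the triple mutant minus the labelled double mutant of the same batch, for each of the 10 T-box genes, with 1 marker per batch and batch 4 in red. In 8 genes batches 1 to 3 lie below 0 and batch 4 above it, while all batches of tbx-8 and tbx-9 lie within -0.14 to 0.40.

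The calls of this comparison turned on replicate 4 of the triple mutant. It was the highest of the 4 libraries of its genotype in 9 of 10 members, the exception being tbx-8, and replicate 3 was the lowest in 9 of 10. It exceeded the mean of replicates 1 to 3 by 0.74 for tbx-11 to 3.08 for tbx-40, and differed from it by -0.47 for tbx-8 and 0.22 for tbx-9. Without this library 6 of 10 members were called lower in limma, at log2 fold changes of -2.05 for tbx-32 (SE 0.34), -2.18 for tbx-33 (SE 0.38), -1.48 for tbx-37 (SE 0.32), -2.10 for tbx-38 (SE 0.43), -1.99 for tbx-39 (SE 0.32) and -2.17 for tbx-40 (SE 0.43). These errors do not allow for the choice of members by the same labelled double mutant libraries. Over all genes 1.42% were then called and 1.27% were called lower. tbx-35, at -1.71 (95% interval -2.66 to -0.77), and tbx-11, at -0.40 (95% interval -0.74 to -0.06), were not called, and tbx-8 and tbx-9 were at 0.28 (95% interval -0.13 to 0.70) and 0.10 (95% interval -0.28 to 0.48).

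Leaving out all 3 libraries of batch 4, a setting chosen after seeing the data, left 4 of 10 called lower, tbx-32 at -2.14, tbx-33 at -2.22, tbx-38 at -2.13 and tbx-39 at -2.02, where 1.25% of all genes were called and 1.14% were called lower. In the triple mutant against daf-2, the median log2 fold change of the 10 genes was 0.05 without replicate 4 of the triple mutant, and tbx-8, tbx-9 and tbx-11 were still called. The labels give no reason to leave this library out, and what sets it apart was not tested.

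**Figure D3:**
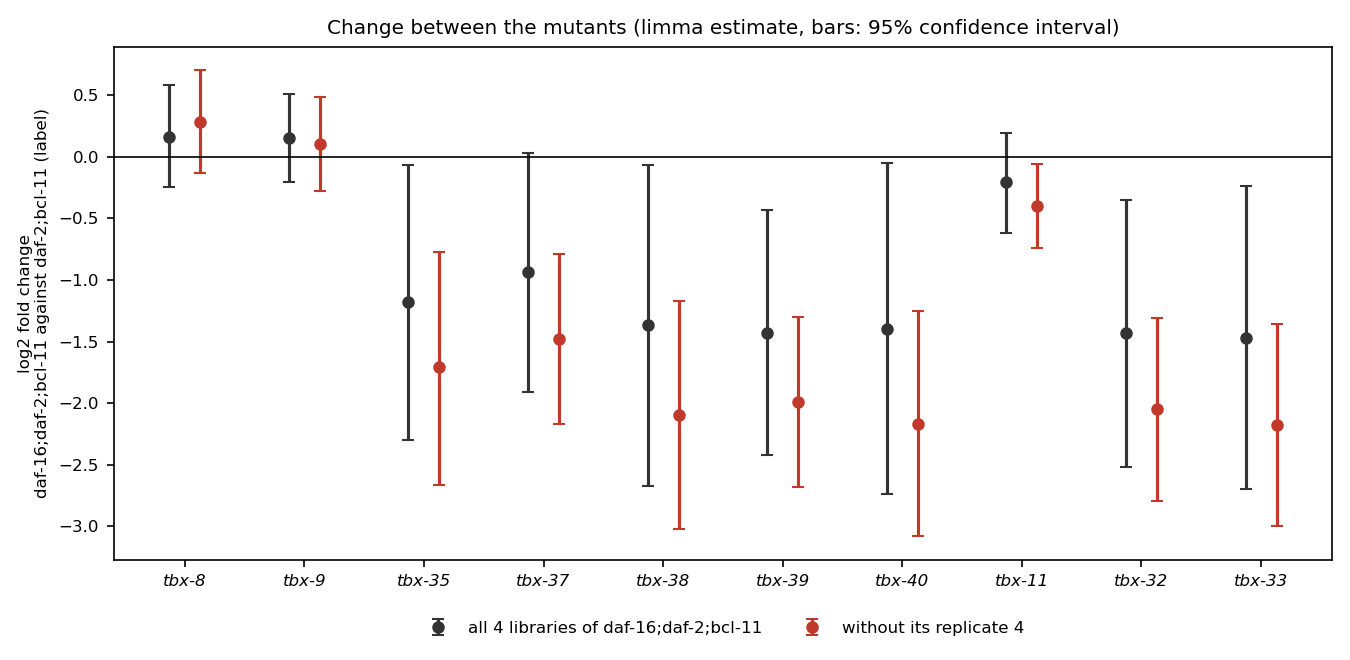
log2 fold change of the triple mutant against the labelled double mutant for the 10 T-box genes (limma estimate, bars are 95% confidence intervals), with all libraries in black and without replicate 4 of the triple mutant in red. Leaving that library out moves tbx-33 to -2.18, against -1.47 with all libraries, while tbx-8 is at 0.28 without it and 0.16 with all libraries.

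Spread between libraries was widest in the triple mutant for the 8 genes other than tbx-8 and tbx-9. The SD over its 4 libraries was 0.43 to 1.70 for these 8, but 0.28 for tbx-8 and 0.14 for tbx-9. Over all 10 genes the SD was 0.08 to 0.34 in the labelled double mutant and 0.28 to 1.03 in daf-2, so the ranges of the genotypes overlapped. Most members shared their highest library within a genotype. Replicate 1 was the highest library of the labelled double mutant in 10 of 10 genes. In daf-2 replicate 4 was highest in 5 and replicate 1 in 4, and replicates 2 and 3 were lowest in 5 and 4.

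Markers of early embryonic stage moved largely with 8 of the 10 T-box genes. The late markers did not separate the mutants, with means of 14.5 in the triple mutant and 14.46 in the labelled double mutant. Lists of 20 maternal transcripts, 16 early zygotic transcripts and 18 late embryo transcripts were taken by name, after 1 of 17 early zygotic names found no value. The mean rlog value of the maternal list was 10.38, 10.11, 10.18 and 11.65 in the triple mutant and 11.51, 11.06, 10.97 and 10.93 in the labelled double mutant, against 9.68, 9.47, 9.76 and 10.88 in daf-2. That of the early zygotic list was 10.22, 9.67, 9.37 and 11.30 in the triple mutant and 11.07, 10.85, 10.72 and 10.66 in the labelled double mutant, against 10.34, 9.19, 9.54 and 10.21 in daf-2. Replicate 4 of the triple mutant was the highest library of its genotype in 18 of 20 maternal and 15 of 16 early zygotic transcripts and the lowest in 17 of 18 late ones. Replicate 4 of daf-2 was likewise the highest of its genotype in 18 of 20 maternal transcripts, but in 4 of 16 early zygotic ones, and the lowest in 8 of 18 late ones. The late list had means of 14.29, 14.81, 14.92 and 13.99 in the triple mutant and 14.38, 14.37, 14.54 and 14.55 in the labelled double mutant, against 15.01, 15.23, 14.99 and 14.82 in daf-2.

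The mean of the 8 T-box genes other than tbx-8 and tbx-9 largely followed the early lists, at 7.63, 7.21, 6.59 and 9.47 in the triple mutant and 9.23, 8.82, 8.76 and 8.81 in the labelled double mutant, against 7.49, 6.57, 6.70 and 7.80 in daf-2. Replicate 4 of daf-2 departed from this. It was at 10.88 in the maternal list, near the 10.93 of replicate 4 of the labelled double mutant, but at 7.80 in the 8 genes. The mean of tbx-8 and tbx-9 did not follow the early lists, at 10.96, 11.04, 10.90 and 10.84 in the triple mutant and 11.01, 10.84, 10.55 and 10.72 in the labelled double mutant, against 10.03, 9.92, 10.19 and 9.70 in daf-2. This division of the list was made after the values were seen. The part of embryonic stage in the differences between genotypes was not tested. With the maternal mean minus the late mean as a term in the model, 2 of 10 members, tbx-8 and tbx-9, were called in the labelled double mutant against daf-2. The share of all genes called there with this term is not given, so nothing is read from that count. The log2 fold changes there were then 1.08 for tbx-8, 0.76 for tbx-9, 0.44 for tbx-11, 1.02 for tbx-32, 0.30 for tbx-33, -0.34 for tbx-35, 0.09 for tbx-37, -0.05 for tbx-38, 0.11 for tbx-39 and 0.09 for tbx-40. In the triple mutant against daf-2 they were 1.11 for tbx-8, 0.98 for tbx-9, 0.42 for tbx-11 and 0.09 for tbx-32, and between -0.96 for tbx-35 and -0.39 for tbx-37 in the other 6. Between the mutants they were 0.03 for tbx-8, 0.22 for tbx-9 and -0.02 for tbx-11. The remaining genes lay there between -0.93 for tbx-32 and -0.48 for tbx-37.

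**Figure D4:**
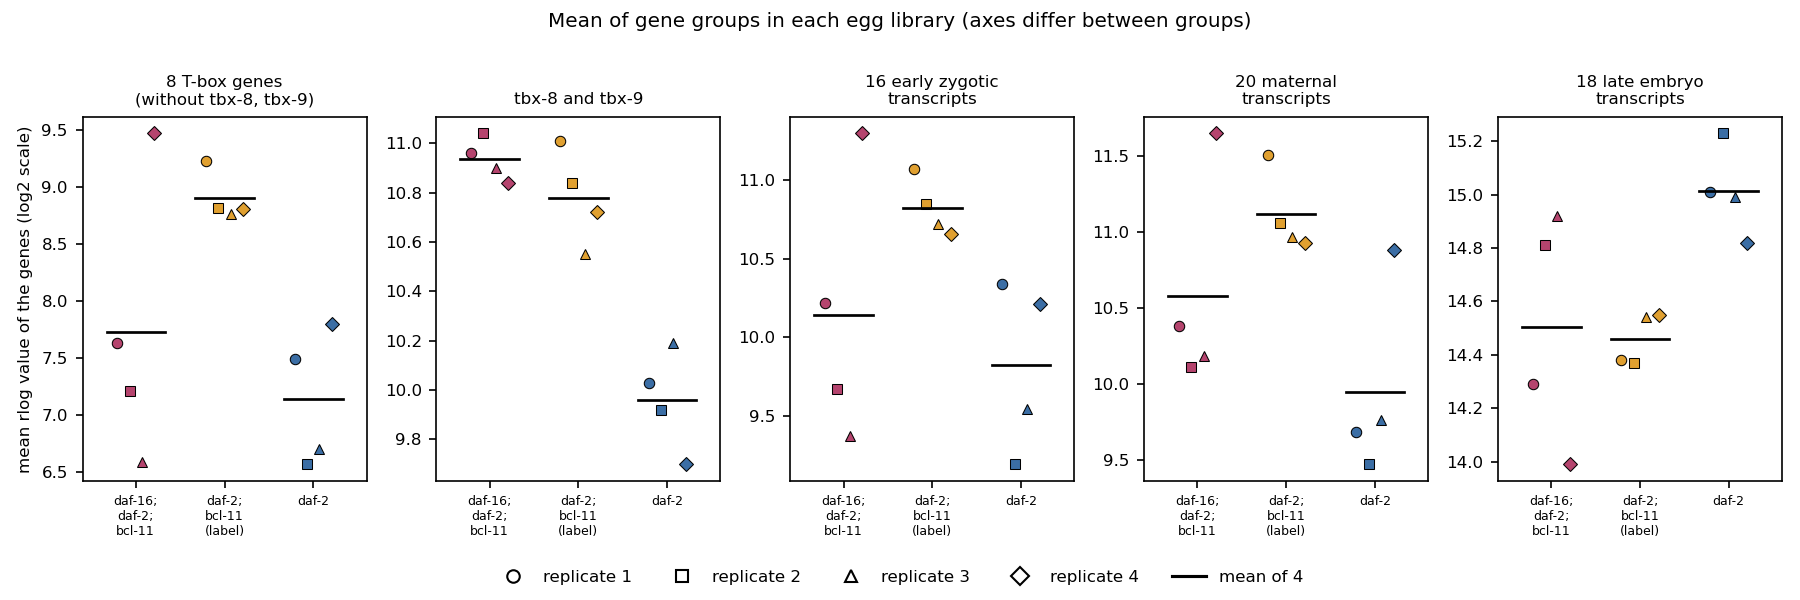
Mean rlog value (log2 scale, own axis for each group) of 5 groups of genes in each of the 12 egg libraries, with the triple mutant left, the labelled double mutant in the middle and daf-2 right. Marker shape gives the replicate and the bar the mean of 4 libraries, and replicate 4 of the triple mutant lies at 9.47 in the 8 T-box genes and 11.65 in the maternal list but at 10.84 in tbx-8 and tbx-9.

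By count, 2 of 20 maternal transcripts rose in the triple mutant (cpg-1 and mex-3, named after their values were seen) and 16 of 20 in the labelled double mutant against daf-2. The count in the triple mutant was unsteady, at 0 without its replicate 4, 7 with the replicate block (batch as a term in the model), 12 without batch 4 and 17 after median centring, while in the labelled double mutant 18 rose after centring. Shares of all genes against daf-2 without replicate 4, with the block or without batch 4 are not given. Counts of this and the next list under those settings are thus a description only. Among the 16 were pos-1, a zinc finger protein that sets posterior fate (log2 fold change 2.03, adjusted p = 0.00292), mex-5 (1.88, adjusted p = 0.00757), puf-11 (1.75, adjusted p = 0.00499) and oma-2 (1.66, adjusted p = 0.0153), all in the labelled double mutant and in limma. Early zygotic transcripts rose in 3 of 16 cases and fell in 1 in the triple mutant, with 1 rising and 1 falling without its replicate 4, and rose in 9 of 16 in the labelled double mutant, led by pes-10 (2.13, adjusted p = 0.019, limma). After centring 8 rose and 1 fell in the triple mutant, and 14 rose in the labelled double mutant. Of all genes 6.38% rose in the triple mutant and 7.00% in the labelled double mutant. After centring the shares of all genes were 37.6% rising and 8.08% falling in the triple mutant, and 26.7% rising and 7.40% falling in the labelled double mutant. Late embryo transcripts fell in 9 of 18 cases in each comparison, where 16.2% of all genes (the triple mutant) and 3759 of 25122 (the labelled double mutant) fell. Among the 9 was the muscle myosin gene myo-3, at -1.22 in the triple mutant (adjusted p = 0.000376, limma) and -1.14 in the labelled double mutant (adjusted p = 0.000869, limma). The others, named after their values were seen, were unc-54, unc-15, myo-2, mup-2, tni-1, lev-11 and unc-52, of muscle or its attachment, and the collagen gene sqt-3. The rest of the list was not called lower. It ran from dpy-7 at -0.43 to let-653 at 0.51 in the triple mutant, and from dpy-17 at -0.41 to let-653 at 0.21 in the labelled double mutant. The fall was thus not general to the list. After centring 4 of 18 fell and 6 rose in the triple mutant, and 4 fell and 2 rose in the labelled double mutant, with myo-3 at -0.68 in the triple mutant and -0.71 in the labelled double mutant. Between the mutants 0 genes of the 3 lists were called in limma, and 2 maternal, 7 early zygotic and 2 late transcripts had an unadjusted p below 0.05. The share of all genes at that p was 6.03%. Without replicate 4 of the triple mutant 2 maternal transcripts (pos-1 and puf-11) and 5 early zygotic ones (pes-10, vet-6, sdz-38, med-1 and med-2, named after their values were seen) fell, where 1.27% of all genes did.

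Lists for tissue of the mother had means near or below the library medians, with some single genes above them. Summarised as the mean rlog value of a list, 6 yolk protein genes lay at 5.05 to 5.87 in the triple mutant, 4.86 to 5.39 in the labelled double mutant and 5.13 to 6.19 in daf-2. A list of 10 sperm genes lay at 2.92 to 3.27 in the triple mutant, 3.03 to 3.29 in the labelled double mutant and 3.08 to 3.47 in daf-2. In neither list was a gene called in limma in any of the 3 comparisons on the deposited scale (after centring 2 yolk and 2 sperm genes rose in the triple mutant and 2 sperm genes in the labelled double mutant), and at an unadjusted p below 0.05 the count was at most 1 of 6 yolk and 2 of 10 sperm genes. Of all genes 37.6% rose in the triple mutant after centring and 26.7% in the labelled double mutant. Of 6 adult cuticle genes 2 fell in the triple mutant and 1 in the labelled double mutant (0 in the triple mutant and 1 in the labelled double mutant after centring). The mean of that list lay at 3.86 to 4.28 in the triple mutant, 3.70 to 4.41 in the labelled double mutant and 3.90 to 5.18 in daf-2. Its lowest gene, the adult collagen gene col-19, lay at 1.87 to 2.52 in all libraries. Its highest, bli-2, had means of 6.18 in the triple mutant, 5.76 in the labelled double mutant and 5.86 in daf-2.

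The rest of the T-box family was examined by name. Of 12 names tbx-42 found no value, and the others stood on 12 gene identifiers with 11 symbols. In the triple mutant against daf-2, 1 of 12 rose and 2 fell, and in the labelled double mutant 2 rose and 2 fell. Over all genes 6.38% rose and 16.2% fell in the triple mutant, and 7.00% rose and 3759 of 25122 fell in the labelled double mutant, so the share of T-box genes that fell was near that of all genes. With the replicate block 4 rose in the labelled double mutant, both identifiers of tbx-30 among them (adjusted p = 0.0478, against 0.0508 without the block, limma), 5 rose there without replicate 4 of the triple mutant and 6 without batch 4. Shares of all genes under these settings are not given, so nothing is read from these counts. After centring 7 rose and 0 fell in the triple mutant, where 37.6% of all genes rose and 8.08% fell. In the labelled double mutant 6 then rose and 1 fell, where 26.7% of all genes rose and 7.4% fell. tbx-43 rose in both, by 0.79 in the triple mutant (SE 0.17, adjusted p = 0.00273, limma) and 0.74 in the labelled double mutant (SE 0.17, adjusted p = 0.00485, limma). Its values were 10.22, 10.63, 10.13 and 10.36 in the triple mutant and 10.37, 10.20, 10.31 and 10.28 in the labelled double mutant, against 9.93, 9.14, 9.44 and 9.68 in daf-2, with no daf-2 library reaching either mutant. sea-1, an X-to-autosome signal element of sex determination, had 11.27, 10.80, 10.43 and 12.42 in the triple mutant and 12.42, 11.98, 11.82 and 11.80 in the labelled double mutant, against 10.94, 10.18, 10.74 and 10.94 in daf-2. It rose by 1.31 in the labelled double mutant (SE 0.33, adjusted p = 0.00843, limma), and in the triple mutant its log2 fold change was 0.53 (SE 0.33, adjusted p = 0.253, limma).

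The 2 that fell are known for later fates. mab-9, which patterns the hindgut and the male tail, had 7.47, 7.46, 7.94 and 7.44 in the triple mutant and 7.31, 7.50, 7.78 and 7.73 in the labelled double mutant, against 8.46, 8.75, 8.37 and 8.59 in daf-2. It fell by 0.97 in the triple mutant (SE 0.18, adjusted p = 0.000785, limma) and by 0.96 in the labelled double mutant (SE 0.18, adjusted p = 0.00109, limma). mls-1, which sets uterine muscle fate, fell by 1.07 in the triple mutant (SE 0.22, adjusted p = 0.0019, limma) and by 1.02 in the labelled double mutant (SE 0.22, adjusted p = 0.00325, limma). For both genes every daf-2 library was above every library of the mutants. Scaling bears on mab-9, which was at -0.43 in the triple mutant and -0.54 in the labelled double mutant after median centring and at -0.48 in the triple mutant and -0.57 in the labelled double mutant after quantile normalization, all short of the fold change threshold. After median centring mls-1 was at -0.53 in the triple mutant, also short of it, and at -0.59 in the labelled double mutant.

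Of the remaining T-box genes, tbx-36, which is not on the list of 10, showed values of the same form as its 8 like members. They were 7.34, 7.10, 6.70 and 9.48 in the triple mutant and 9.41, 8.74, 8.73 and 8.50 in the labelled double mutant, against 8.43, 6.81, 6.61 and 8.94 in daf-2. The daf-2 libraries spread as widely, and tbx-36 was not called against them (log2 fold change -0.04, adjusted p = 0.966, in the triple mutant and 1.14, adjusted p = 0.159, in the labelled double mutant, limma). In sea-1, tbx-30 and tbx-31 too the triple mutant lay below the labelled double mutant in batches 1 to 3 and above it in batch 4. This form was thus not particular to the list of 10. The symbol tbx-30 stood on 2 identifiers with identical values, 3.80, 4.57, 4.07 and 6.12 in the triple mutant and 5.61, 5.38, 5.34 and 5.09 in the labelled double mutant, against 4.60, 3.90, 4.15 and 4.55 in daf-2. These near-identical neighbours on chromosome IV, 2646 bases apart, cannot be told apart in these values. tbx-2, which acts in pharyngeal muscle, tbx-7 and tbx-31 were not called, and tbx-34 and tbx-41 lay at the floor of the table, at 0.28 to 1.43 in every library.

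**Figure D5:**
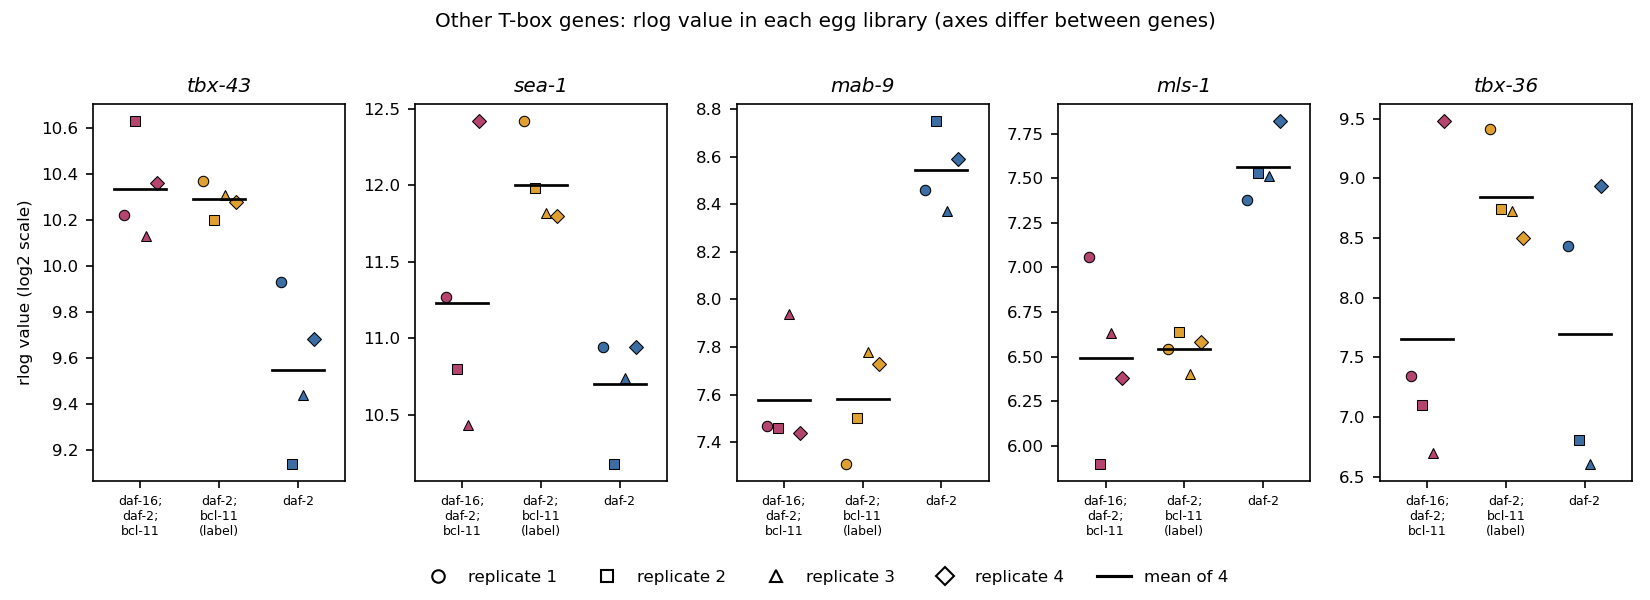
rlog value (log2 scale, own axis for each gene) of 5 T-box genes outside the list of 10 in each of the 12 egg libraries, with the triple mutant left, the labelled double mutant in the middle and daf-2 right. Marker shape gives the replicate and the bar the mean of 4 libraries, and mab-9 lies at 7.31 to 7.94 in the mutants and at 8.37 to 8.75 in daf-2.

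Between the mutants 0 of the 12 other T-box identifiers were called in limma and 2 had an unadjusted p below 0.05, against 6.03% of all genes. Without replicate 4 of the triple mutant 3 were called lower in limma, against 1.27% of all genes. These were sea-1 at -1.17 (adjusted p = 0.0292) and both identifiers of tbx-30 at -1.21 (adjusted p = 0.0273). tbx-7 was the single gene of the list whose mutants did not overlap, with a log2 fold change of 0.40 (SE 0.18, adjusted p = 0.787, limma). Of all genes 4.32% had no overlap there.

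Genes that act upstream of or beside these T-box genes were read from lists taken by name. Of 10 genes upstream of MS and posterior fate, 2 rose in the triple mutant, pop-1, a TCF factor (0.71, adjusted p = 0.00756), and sys-1, its beta-catenin partner (0.68, adjusted p = 0.00105). In the labelled double mutant 5 of 10 rose, among them the maternal zinc finger genes mex-1 (1.84, adjusted p = 0.00579) and pie-1 (1.70, adjusted p = 0.00613) and the GATA factors med-2 (1.25, adjusted p = 0.0176) and med-1 (0.83, adjusted p = 0.0254), which act upstream of tbx-35. Over all genes 6.38% were called higher in the triple mutant and 7.00% in the labelled double mutant. After centring 8 of 10 rose in the triple mutant and 9 in the labelled double mutant, against 37.6% and 26.7% of all genes. Without batch 4 the count was 4 in each. The share of all genes is not given for that setting, so nothing is read from this count. All values are log2 fold changes against daf-2 with adjusted p from limma.

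Among 7 genes of the MS and pharynx programme, 0 rose and 1 fell in the triple mutant, and 1 rose and 1 fell in the labelled double mutant. Over all genes 16.2% fell in the triple mutant and 3759 of 25122 in the labelled double mutant, near this share, and without batch 4 no gene of the list fell in either. The share of all genes without batch 4 is not given there. After centring 6 of 7 rose in the triple mutant and 3 in the labelled double mutant, and 0 fell. The one that rose was ceh-51, a homeobox gene that acts with tbx-35 (1.19, adjusted p = 0.017, limma). The one that fell was ceh-22, an NK-2 homeobox gene of pharyngeal muscle, at -0.81 in the triple mutant (adjusted p = 0.0277, limma) and -0.83 in the labelled double mutant (adjusted p = 0.0255, limma). After median centring ceh-22 stood at -0.27 in the triple mutant and -0.40 in the labelled double mutant, and without replicate 4 of the triple mutant it was not called there (adjusted p = 0.0729, limma). For the sister fate, endoderm, 2 of 4 genes rose in the triple mutant, the GATA factors end-1 (0.85, adjusted p = 0.0178, limma) and elt-7 (0.68, adjusted p = 0.000402, limma), and end-1 in the labelled double mutant (1.17, adjusted p = 0.00319, limma). In the triple mutant end-1 overlapped daf-2 and, at 0.55 without replicate 4, was then not called. After centring 3 of the 4 rose in each mutant. For the MS and endoderm lists alike, the share of all genes that rose was 6.38% in the triple mutant and 7.00% in the labelled double mutant. After centring it was 37.6% in the triple mutant and 26.7% in the labelled double mutant.

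The Notch list held 12 genes, of which 3 rose in the triple mutant, the ligand genes lag-2 (0.95, adjusted p = 0.00107) and apx-1 (0.62, adjusted p = 0.0182) and the target ref-1 (0.70, adjusted p = 0.00196). In the labelled double mutant 7 of 12 rose, led by hlh-27 (1.73, adjusted p = 0.0111), hlh-29 (1.64, adjusted p = 0.00713), hlh-25 (1.31, adjusted p = 0.0483) and lag-2 (0.94, adjusted p = 0.00156). Over all genes 6.38% rose in the triple mutant and 7.00% in the labelled double mutant. After centring 10 of the 12 rose in the triple mutant, against 37.6% of all genes. In the labelled double mutant 12 then rose, against 26.7% of all genes. The hlh genes belong to the REF-1 family, which Notch signals switch on in early blastomeres. Of 6 genes of the epidermis and posterior body, where tbx-8 and tbx-9 act, 3 rose in the triple mutant, nob-1 (0.99, adjusted p = 0.00188), php-3 (0.73, adjusted p = 0.00171) and elt-1 (0.69, adjusted p = 0.000211), and nob-1 rose in the labelled double mutant (0.83, adjusted p = 0.0072), against the same 6.38% and 7.00% of all genes. After centring 5 of the 6 rose in the triple mutant and 4 in the labelled double mutant, against 37.6% and 26.7% of all genes. nob-1 and php-3 are posterior Hox genes and elt-1 is the GATA factor that sets epidermal fate. These are log2 fold changes against daf-2 with adjusted p from limma, and 0 genes of the upstream, MS, endoderm, Notch and epidermis lists were called between the mutants in limma, where 5, 2, 1, 2 and 0 had an unadjusted p below 0.05. The share of all genes at that p was 6.03%. Without replicate 4 of the triple mutant med-1, med-2, hlh-28 and hlh-29 fell, named after their values were seen, where 1.27% of all genes did. The lists share med-1, med-2 and end-1 with the early zygotic list.

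As a description, the genes whose rlog values were most like the mean of the 10 members over the 12 libraries were dut-1 (Pearson r = 0.997), F45C12.17 (r = 0.990), C06C3.7 (r = 0.989), mct-5 (r = 0.988) and bath-41 (r = 0.987). Those most like tbx-32 alone were syx-4 (r = 0.991), AH10.2 (r = 0.990) and pas-5 (r = 0.990). The 12 points share genotype, batch and normalization, and many genes followed the same libraries.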

How the data were processed

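RNA of eggs of 3 genotypes, 4 libraries each, was made into Smart-seq2 libraries, which keep no strand. The authors demultiplexed reads with bcl2fastq (version 2.20), estimated transcript abundance with kallisto (version 048.0 in the submitters' processing notes) on WBcel235, and deposited log2-scale rlog values of normalized counts for 25122 genes. How transcripts were summed to genes and how low genes were filtered were not given in the sources used here. Values from -1.52 to 23.1 were used as deposited. They keep no reads, so depth is unknown and no count test was used. Columns were matched to libraries by genotype and replicate number. A gene name table gave symbols for 23471 identifiers, and positions came from the Ensembl 115 annotation of WBcel235. No sequence is shown, and none was used here.

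Differences came from a limma model (version 3.58.1, run in R 4.3.3, with lmFit, contrasts.fit and trended eBayes) that held all 12 libraries without a block, and Benjamini-Hochberg adjustment covered all genes. The script was tested on simulated data. Calls needed an adjusted p below 0.05 and a change beyond 1.5-fold (0.585 on the log2 scale). The members, the gene lists and the rule for named genes were chosen with earlier results of these data known. Named genes are the 10 members, the targeted genes, the other T-box genes, and in each other list and comparison up to 4 called genes without overlap between genotypes, largest changes first. A few are named although they fall outside this rule, and the text says so. Most similar genes were ranked by Pearson's r with a mean value of at least log2(10). The replicate numbers pair the libraries because the labels give them as the batch. Deviations from the genotype means of same-numbered libraries had a mean correlation of 0.215 for the triple mutant with daf-2, 0.0312 for the labelled double mutant with daf-2, and -0.0465 between the mutants. Alternatives were eBayes without trend, only the 2 genotypes compared, a filter at log2(10), median centring, quantile normalization, the replicate block, fold change thresholds of 0 and 1, a stage score as covariate, and each library left out in turn. Leaving out batch 4 was added after seeing the data. Figures were drawn with matplotlib 3.10.9.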

Additional observations from a re-analysis of the deposited data

Results flagged for a closer look

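Among 75 groups of 4 libraries checked for a library far from the others, over the T-box and targeted genes, 4 held one, where chance alone gives about 1 in 20. tbx-34 was at 1.12 in replicate 4 of the triple mutant, with the other 3 libraries of that genotype averaging 1.02. tbx-41 was at 0.64 in replicate 4 of the labelled double mutant, with the others averaging 0.29, and at 0.42 in replicate 4 of daf-2, with the others averaging 0.28. Both genes lay at the floor of the table. mab-9 was at 7.94 in replicate 3 of the triple mutant, with the others averaging 7.46. None of the 10 T-box genes of the list was among these.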

How the results depend on the processing

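In the triple mutant against daf-2, 3 members were called, 6 after median centring and 1 at a fold change threshold of 1, and leaving out single libraries kept the count at 3. In the labelled double mutant against daf-2, 9 members were called, 10 with the replicate block, 6 to 10 when single libraries were left out (6 without replicate 2 or 3 of daf-2 or without replicate 1 of the labelled double mutant) and 2 with the stage score as covariate. With that score the log2 fold change of tbx-38 was -0.05, against 2.04, and that of tbx-35 was -0.34, against 1.35, and the cause was not tested. Since the contrast with daf-2 chose the members, these counts are a description. Between the mutants 0 members were called, 0 to 6 when single libraries were left out and 4 without batch 4. The replicate block changed no other count of members, and it brought the other T-box identifiers called in the labelled double mutant against daf-2 to 6. Of all genes, 5661 were called in the triple mutant against daf-2 (11465 centred, 2629 at a threshold of 1, 5283 to 6163 when single libraries were left out). In the labelled double mutant against daf-2 the number was 5517 (8574 centred, 2511 at a threshold of 1, 4493 to 5825 when single libraries were left out). Between the mutants it was 3 (6 with the stage score, 2 to 357 when single libraries were left out, 357 without replicate 4 of the triple mutant, 314 without batch 4). Counts of all genes against daf-2 with the replicate block, with the stage score or without batch 4 are not given. Nothing is therefore read from the counts of members or lists against daf-2 under those settings. The other T-box identifiers called numbered 3 in the triple mutant against daf-2 (7 centred, 1 at a threshold of 1, 5 with the stage score), 4 in the labelled double mutant against daf-2 (7 with only these genotypes in the model, 7 centred, 2 at a threshold of 1, 2 with the stage score, 4 to 7 when single libraries were left out, 8 without batch 4) and 0 between the mutants (0 to 3 when single libraries were left out, 2 without batch 4). The stage score comes from the same libraries as the values it adjusts. Low genes such as tbx-39 and tbx-32 are shrunk by the rlog, so their changes are understated, and without reads no limit for them can be given.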
